A study of Mus musculus with 15 samples.

Results

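The genes described here are clusterin (Clu) and the SPARC family of matrix glycoproteins (Sparc, Sparcl1, Smoc1, Smoc2, Spock1, Spock2, Spock3 and Fstl1) in fetal mouse preSertoli cells. They were taken by gene symbol from the RNA-seq table, 9 of 27697 symbols, and were chosen by the read counts of Sparc and Clu, which stand among the highest entries. All 9 members had a row, with Smoc2 spelled in lower case as smoc2. The levels and ranks of Sparc and Clu were therefore the reason for the choice and are given as a description, with no test.

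The series holds 15 samples, of which the 3 RNA-seq libraries are used here. The cells came from E15.5 testes of F1 embryos of a C57BL/6J x CD-1 cross and were purified by flow sorting. About 165 embryos were divided into 3 pools of about equal cell number, so each library is a pool of animals, and all 3 belong to 1 group. The labels of the RNA libraries name no reporter, allele or treatment. Poly(A) RNA was sequenced as single-end reads of 50 bp, and the libraries held 47.8, 56.0 and 51.7 M expected counts. The 8 DNase-seq libraries and the H3K27ac list are positions in another genome build than the gene tables used here, so chromatin at the member genes was not analysed here.

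Sertoli cells enclose the germ cells of the testis cords, lay down part of the basement membrane beneath them and secrete many glycoproteins. Clusterin is a secreted chaperone that keeps unfolded proteins in solution outside the cell and is also known as a major secreted glycoprotein of Sertoli cells. SPARC, also called osteonectin or BM-40, binds calcium and collagen and affects how cells attach to matrix and how collagen is deposited. Its relatives share a follistatin-like region and an extracellular calcium-binding region in various combinations. Sparcl1 (hevin) is the closest relative of SPARC. The SMOC proteins reside in basement membranes and modulate BMP signalling. The SPOCK genes encode testicans, proteoglycans that carry glycosaminoglycan chains, and Fstl1 encodes a secreted glycoprotein that binds BMP ligands.

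Levels are given in CPM, the share of a library's expected counts that fell on a gene, with the library total set to 1e6. No transcript lengths were used here, so a CPM says how many reads a gene took and not how many transcripts it had. An order of genes by CPM is an order of reads. Values of 1 gene in different libraries do not depend on length.

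The promoter windows of Sparc and the testican genes are shown because these genes span the range of the family, from the most to the fewest reads. RefSeq's table for build GRCm38.p6 gave windows from 250 bases before to 50 bases after an annotated start for 5 of the 9 members (Sparc, Spock1, Spock2, Spock3 and Fstl1). Capitals mark CpG dinucleotides, and each sequence reads 5′ to 3′ on the strand of the gene. The windows lie at chr11:55420031-55420330 for Sparc (minus strand), chr10:60106007-60106306 for Spock2 (plus strand), chr13:57908283-57908582 for Spock1 (minus strand) and chr8:62950982-62951281 for Spock3 (plus strand, the first of its 2 windows).
Sparc: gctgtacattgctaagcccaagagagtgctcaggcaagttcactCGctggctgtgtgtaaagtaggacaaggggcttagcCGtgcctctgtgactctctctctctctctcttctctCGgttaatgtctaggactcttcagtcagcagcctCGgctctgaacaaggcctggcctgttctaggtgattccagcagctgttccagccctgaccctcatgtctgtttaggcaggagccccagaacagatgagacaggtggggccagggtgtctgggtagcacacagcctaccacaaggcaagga
Spock2: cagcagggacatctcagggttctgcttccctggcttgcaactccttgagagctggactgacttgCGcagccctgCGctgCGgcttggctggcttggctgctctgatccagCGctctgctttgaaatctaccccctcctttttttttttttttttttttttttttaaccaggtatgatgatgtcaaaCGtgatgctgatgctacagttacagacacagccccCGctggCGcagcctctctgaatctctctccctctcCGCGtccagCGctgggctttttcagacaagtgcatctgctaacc
Spock1: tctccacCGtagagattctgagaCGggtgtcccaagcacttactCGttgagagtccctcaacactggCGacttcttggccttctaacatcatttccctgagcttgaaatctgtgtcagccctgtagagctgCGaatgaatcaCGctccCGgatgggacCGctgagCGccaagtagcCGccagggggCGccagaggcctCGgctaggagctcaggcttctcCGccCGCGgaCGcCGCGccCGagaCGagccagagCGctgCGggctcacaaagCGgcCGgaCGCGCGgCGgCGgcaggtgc
Spock3: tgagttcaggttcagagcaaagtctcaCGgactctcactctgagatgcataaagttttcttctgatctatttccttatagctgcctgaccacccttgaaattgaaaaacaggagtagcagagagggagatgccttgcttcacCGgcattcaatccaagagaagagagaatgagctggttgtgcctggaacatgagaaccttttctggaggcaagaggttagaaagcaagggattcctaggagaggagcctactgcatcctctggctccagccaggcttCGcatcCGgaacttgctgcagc

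The Sparc window held 4 CpG dinucleotides and 55.3% G and C, against a median of 7 CpG and 52.7% over all 32851 windows. Of all windows, 31.4% held fewer CpG than Sparc. The Spock1 window held 29 CpG and 64.0% G and C, and 87.1% of all windows held fewer CpG. Spock2 had 10 CpG and 52.3% G and C, while the Spock3 window shown had 4 CpG and 49.0%. The other Spock3 window, at chr8:62951095-62951394, had 7 CpG and 59.0%. The Fstl1 window, not printed, had 21 CpG and 66.7% G and C at chr16:37776805-37777104 (plus strand). In these few windows CpG content did not follow the number of reads, since Spock1 was richest in CpG and Sparc had no more than either Spock3 window.

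Both strands of these windows were searched for 10 motifs. They were the SOX site AACAAT and its core ACAAT, which lies within it. The GATA site was taken as AGATAA or as TGATAA. A nuclear receptor element was spelled AAGGTCA and the GC box GGGCGG. The E box was CACGTG, and the AP-1 site was TGACTCA or, in its other form, TGAGTCA. The heat shock element was TTCNNGAA or, in the other order of its arms, GAANNTTC. The TATA box was TATAAA, and the last motif was the CCAAT box. The windows of Sparc, Spock2 and Spock3 held none of them. The Spock1 window held 1 GC box and the Fstl1 window held 2, a motif found in 35.7% of all windows. Fstl1 also held a GATA match (18.6% of all windows) and a heat shock element match (15.1%). No match means only that these letters are not in these windows.

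Sparc took more reads than any other member. It stood at 4227 CPM in library 1, 4137 in library 2 and 4806 in library 3, a mean of 4390.3 ± 363 CPM (SD, n = 3; later values after ± are likewise SD over the 3 libraries). Library 3 was the highest, and libraries 1 and 2 were close to each other. Sparc ranked 4 among all symbols in libraries 1 and 2 and 3 in library 3, and it alone took 0.439% of all expected counts.

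Clu stood at 2980.4, 3069 and 3468 CPM in libraries 1, 2 and 3, a mean of 3172 ± 259 CPM. As for Sparc, library 3 was the highest. Clu ranked 8, 7 and 6 in the 3 libraries and took 0.317% of the expected counts. Sparc had 1.35 to 1.42 times the reads of Clu in each library, and their ranges did not overlap. A transcript longer by that factor would offset this gap, so the 2 genes are not ordered by transcript number here.

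The symbols nearest to Sparc in mean CPM over the 3 libraries were DQ539915 (an entry named by a clone accession), the translation factor Eef1a1 and mitochondrial Cytb above it, and mitochondrial Cox2, the retinaldehyde dehydrogenase Aldh1a1 and the chaperone Hsp90ab1 below it. The Sparc range overlapped that of Cytb (4728 to 4946 CPM) and lay above that of Cox2 (3319 to 3791 CPM). Cox2, Aldh1a1 and Hsp90ab1 also stood directly above Clu, at means of 3518, 3295 and 3180.4 CPM. Below Clu came mitochondrial mt-Nd4 at 2541 CPM, the chaperone Hspa8 at 2459 CPM and the lipid desaturase Scd2 at 2437 CPM. The Clu range overlapped those of all 3 symbols above it and of none of the 3 below it.

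**Figure D1:**
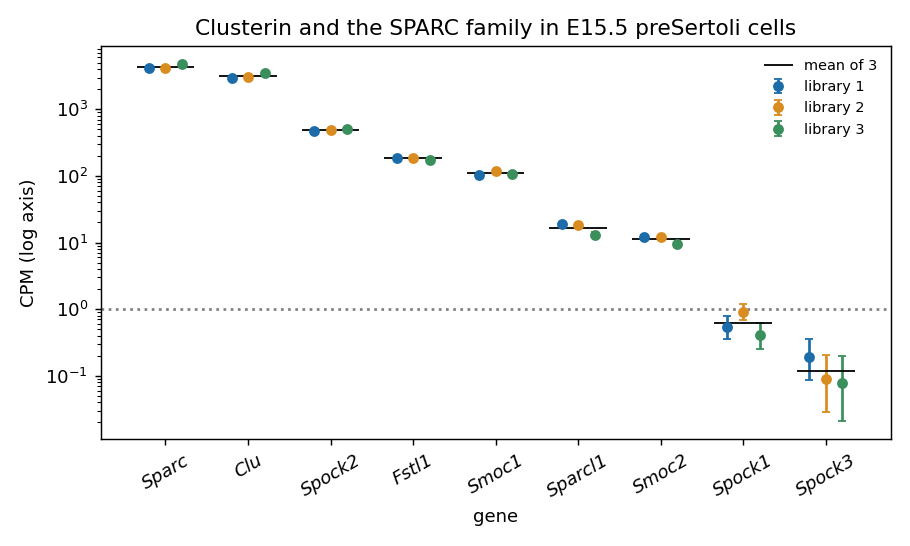
CPM of the 9 members on a log axis, with a point for each of the 3 libraries, a bar for the exact 95% Poisson interval of its count (counting error only) and a line at the mean; the dotted line marks 1 CPM. Sparc and Clu sit above 2980 CPM in every library, while Spock1 and Spock3 lie below 1 CPM in all 3.

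Sparcl1, the closest relative of Sparc, took far fewer reads. It stood at 18.7, 18.3 and 13.1 CPM, a mean of 16.7 ± 3.09 CPM and rank 8640. Library 3 was the lowest for Sparcl1 and the highest for Sparc. The ratio of Sparc to Sparcl1 reads was 226 in library 1, 227 in library 2 and 366 in library 3. Sparcl1 rested on 679 to 1023 expected counts a library, and its Poisson interval in library 3 (12.2 to 14.2 CPM) lay below those of library 1 (17.5 to 19.9) and library 2 (17.2 to 19.4).

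The SMOC genes were both expressed, with more reads on Smoc1. Smoc1 stood at 103, 119 and 107 CPM, a mean of 110 ± 8.17 CPM and rank 2285, with library 2 the highest. Smoc2 stood at 12.1, 11.9 and 9.40 CPM, a mean of 11.1 ± 1.51 CPM and rank 9597, with library 3 the lowest. Smoc1 had 8.52 to 11.4 times the reads of Smoc2, and the ranges were far apart.

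Among the testicans, Spock2 took nearly all reads. Spock2 stood at 466, 495 and 514 CPM, a mean of 492 ± 24.4 CPM and rank 244, next among the members after Sparc and Clu. Spock1 stood at 0.544, 0.911 and 0.406 CPM, from 26, 51 and 21 expected counts. The Poisson interval of Spock1 in library 2 (0.678 to 1.20 CPM) lay above that in library 3 (0.251 to 0.621 CPM). Spock3 stood at 0.188, 0.0893 and 0.0773 CPM, from 9, 5 and 4 expected counts, and its intervals overlapped in all 3 libraries (0.0862 to 0.358, 0.0290 to 0.208 and 0.0211 to 0.198 CPM). Spock2 had 544 to 1267 times the reads of Spock1 and 2473 to 6652 times those of Spock3, ratios that rest on few Spock1 and Spock3 counts.

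Fstl1 stood at 187 CPM in libraries 1 and 2 and at 174 CPM in library 3. Its mean was 183 ± 7.78 CPM, at rank 1180, and Sparc had 22.1 to 27.7 times its reads. Libraries 1 and 2 were almost equal for Fstl1, and library 3 was the lowest.

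Ordered by reads, the members ran Sparc, Clu, Spock2, Fstl1, Smoc1, Sparcl1, Smoc2, Spock1 and Spock3. In all 8 neighbouring pairs of this order the ranges of the 3 libraries did not overlap, which concerns the spread between libraries and not transcript length. In 6 of the 8 pairs every library showed a gap of 1.5-fold or more. The closest pairs were Sparc with Clu and Sparcl1 with Smoc2, the latter 1.40 to 1.55 times apart. Of the members, 7 of 9 reached 1 CPM in all 3 libraries, against 47.1% of all symbols, and 5 reached 100 CPM in all 3, against 8.53%. The members were picked with Sparc and Clu in view, so these counts carry no support for the family as a whole.

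**Figure D2:**
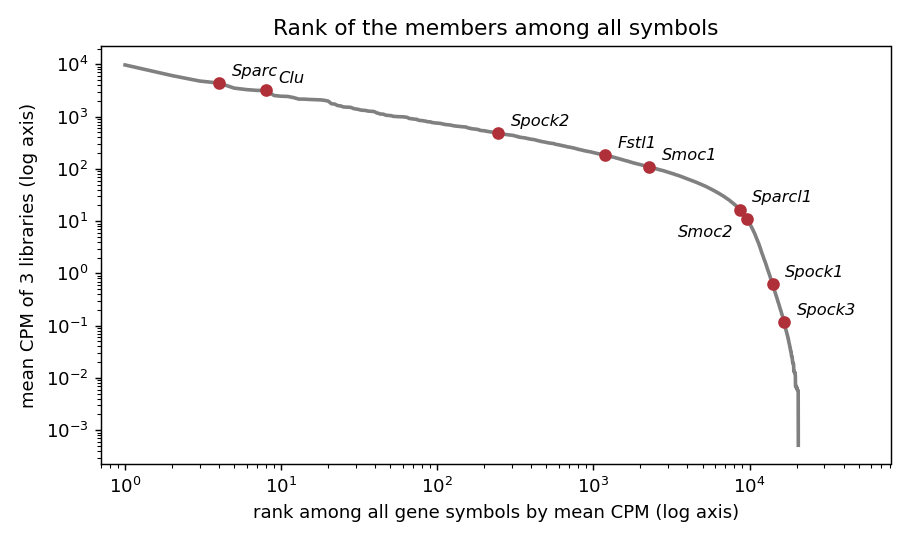
Mean CPM against rank for all symbols above 0 (grey line, both axes logarithmic), with the 9 members as red points. Sparc and Clu lie at ranks 4 and 8, 3 members lie between ranks 244 and 2285, and 4 lie from rank 8640 down.

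Within the 8 SPARC-family genes, Sparc made up 84.3% ± 1.10 of the summed CPM. Spock2 made up 9.47% ± 0.439, Fstl1 3.53% ± 0.382 and Smoc1 2.12% ± 0.247. Sparcl1 (0.324%), Smoc2 (0.216%), Spock1 (0.0121%) and Spock3 (0.00231%) shared the rest. The summed level was 5015, 4969.7 and 5625 CPM in libraries 1, 2 and 3, and it followed Sparc.

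The members did not all stand highest in the same library. Sparc, Clu and Spock2 were highest in library 3, while Fstl1, Sparcl1, Smoc2, Spock1 and Spock3 were lowest there. For Spock1 and Spock3 this rests on few counts, 21 and 4 in library 3. For each of them the Poisson intervals of libraries 1 and 3 overlapped. Of all symbols at 1 CPM or more in all 3 libraries, 35.1% were highest and 37.5% lowest in library 3. Of the 7 members at that level, 3 were highest and 3 lowest there. This split is near that of all expressed symbols and is not read as a trait of the members. Relative to its own mean, library 3 stood at 109% for Sparc and for Clu, at 84.4% for Smoc2 and at 78.7% for Sparcl1. Nothing in the labels separates library 3 from the others, and these are differences between pools of 1 group.

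The summed interstitial, fetal Leydig and peritubular myoid markers were also lowest in library 3, as were the Sertoli and endothelial sums given below. The germ cell sum was lowest in library 2. The blood and macrophage sum was nearly equal in library 1 (22.3 CPM) and library 3 (22.5 CPM), and 2 of its 4 genes were lowest in library 3. All 6 interstitial and fibroblast markers reached 1 CPM in all 3 libraries, and their summed level was 369, 452 and 245 CPM. The highest were the fibrillar collagens Col3a1 (171 ± 45.4 CPM) and Col1a1 (110 ± 42.5 CPM), and each of the 6 was lowest in library 3. All 5 fetal Leydig markers were expressed and lowest in library 3 as well, with sums of 1675.5, 1990.2 and 1215 CPM, led by the steroid enzymes Cyp17a1 (676 ± 145 CPM) and Cyp11a1 (381 ± 88.7 CPM). For the 3 peritubular myoid markers analysed the sums were 16.3, 16.2 and 11.1 CPM, led by Myh11 (11.8 ± 2.66 CPM) and Des (2.18 ± 0.258 CPM), and 2 of the 3 reached 1 CPM. Sparcl1 and Smoc2 were likewise lowest in library 3, and Sparc and Clu were highest there. The part of such cells in these values was not tested. In pooled cells, fewer cells of a type and less RNA per cell cannot be told apart.

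The labelled cell type was checked against its markers. All 10 Sertoli markers reached 1 CPM in all 3 libraries, with sums of 5553, 6091 and 4652 CPM, led by anti-Müllerian hormone (Amh, 2048.5 ± 678 CPM) and the transcription factor Gata4 (744 ± 17.7 CPM). Of these 10 genes, 4 were lowest in library 3, against 37.5% of all expressed symbols. Amh was among them, at 2167, 2660 and 1319 CPM in libraries 1, 2 and 3, and it carried most of the drop of the sum in library 3. Gata4 was highest in library 3, at 761 CPM. Endothelial markers summed to 31.5, 31.4 and 29.2 CPM with 3 of 5 expressed, led by Pecam1 (15.6 ± 0.997 CPM), which was highest in library 3, and Cdh5 (7.77 ± 0.743 CPM). Germ cell markers summed to 43.0, 29.2 and 32.7 CPM with 5 of 5 expressed, led by Ddx4 (12.3 ± 2.63 CPM) and Dazl (7.72 ± 2.70 CPM). Blood and macrophage markers summed to 22.3, 33.5 and 22.5 CPM, lowest in library 1, with 2 of 4 analysed expressed, led by Hbb-b1 (23.1 ± 6.04 CPM) and Csf1r (1.85 ± 0.390 CPM). No marker of these lists was at 0 in all 3 libraries.

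**Figure D3:**
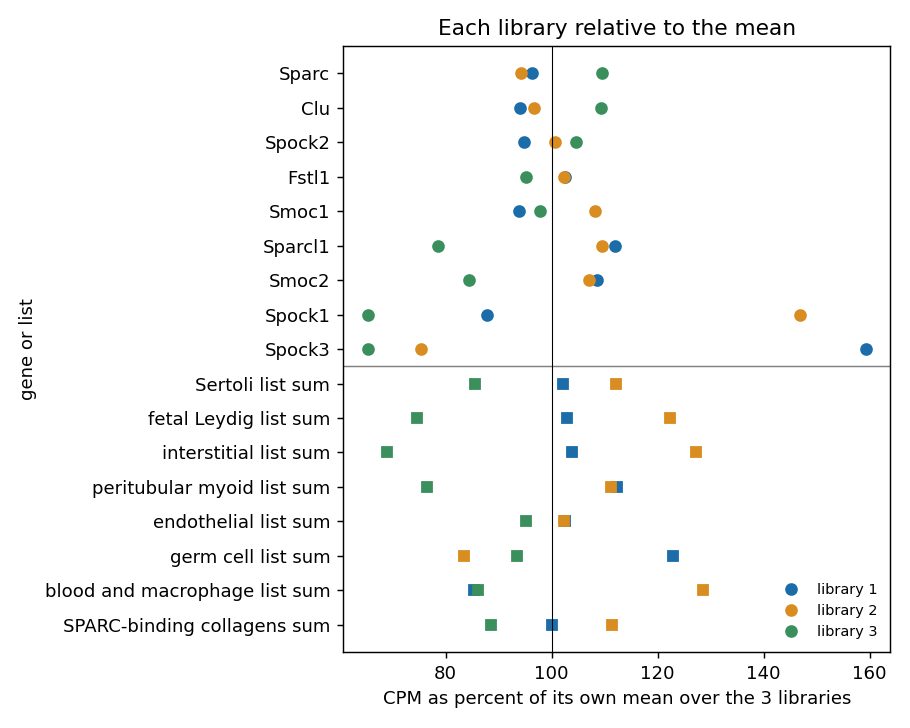
CPM of each member (circles) and summed CPM of marker lists (squares) in each library, as percent of its own mean over the 3 libraries. Library 3 (green) lies at 109% for Sparc and Clu, and below 100% for Sparcl1, Smoc2 and all 8 list sums drawn.

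The spread between libraries was set beside that of other symbols within 2-fold of each member's mean. The coefficient of variation was 8.27% for Sparc and 8.18% for Clu, against medians of 7.42% and 8.01% among 10 and 22 symbols of like level. Sparcl1, at 18.5%, exceeded 93.9% of 3710 symbols of like level, whose median was 7.02%. Smoc2 (13.54% against 7.90%), Smoc1 (7.44% against 5.44%), Spock1 (42.0% against 20.0%) and Spock3 (51.5% against 37.7%) also lay above their medians. Fstl1 (4.26% against 5.42%) and Spock2 (4.97% against 5.83%) lay below. Counting alone gives 40.8% for Spock3 and 17.5% for Spock1, but 3.40% for Sparcl1 and 0.210% for Sparc.

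**Figure D4:**
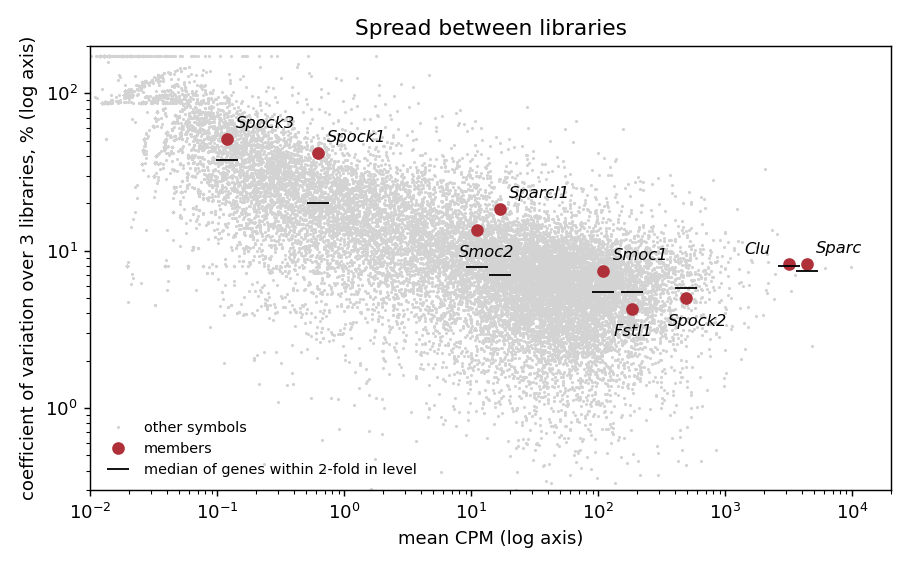
Coefficient of variation over the 3 libraries against mean CPM (both axes logarithmic) for the members (red), all other symbols (grey) and the median of symbols within 2-fold of each member (black bar). Sparcl1 stands at 18.5% over a median of 7.02%, while Fstl1 and Spock2 lie under their medians.

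Genes tied to the members by known function were read from fixed lists. Over all symbols the median was 0.712 CPM, and 47.1% were expressed. Over the expressed symbols alone the median was 32.6 CPM. The list medians take in every gene analysed, expressed or not. All 8 genes of a list of fibrillar and basement membrane collagens, which include ligands of SPARC, were expressed, with a median of 121 CPM. The basement membrane chains Col4a1 (835 ± 29.4 CPM) and Col4a2 (447.5 ± 33.7 CPM) led this list. All 8 collagens were lowest in library 3, where Sparc was highest, against 37.5% of all expressed symbols. The size of the drop was unequal. Relative to its own mean, library 3 stood at 97.0% for Col4a1 and 94.5% for Col4a2, but at 61.0% for Col1a1 and 71.3% for Col3a1. Col1a1 and Col3a1 are the same genes as in the interstitial list, so these counts are not separate. Of 9 collagen chaperones and crosslinking enzymes, all were expressed with a median of 102 CPM, led by the collagen chaperone Serpinh1 (649 ± 14.6 CPM) and P4hb (449 ± 11.95 CPM), a subunit of prolyl hydroxylase. Their summed level was almost the same in each library, at 1663 to 1678 CPM.

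Of 6 SPARC receptors and uptake proteins analysed, 4 were expressed, with a median of 81.6 CPM, or 27.7 CPM when taken on a log2 scale with a pseudocount of 1. The integrin chains Itgb1 (548 ± 33.0 CPM) and Itgb5 (281 ± 8.83 CPM) were the highest. Of 8 proteases analysed that can act on the family or are held back by testicans, 5 were expressed, with a median of 49.9 CPM, or 24.0 CPM on that log2 scale. The lysosomal proteases Ctsl (2168 ± 183 CPM) and Ctsb (336 ± 12.5 CPM) led, and the matrix protease Mmp3 had no count in any library.

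Of 6 clusterin receptors analysed, 5 were expressed, with a median of 4.93 CPM. The endocytic receptor Lrp1 (298 ± 59.4 CPM) and Lrp8 (16.9 ± 0.493 CPM) were the highest. Lrp2 (megalin), the uptake receptor for clusterin in epithelia, was named after its values were seen: it stood at 1.37 ± 0.149 CPM. Among partners of the SMOC proteins and Fstl1 in BMP and innate signalling, 6 of 9 analysed were expressed, with a median of 2.66 CPM, led by the BMP receptors Bmpr1a (191 ± 17.8 CPM) and Bmpr2 (81.0 ± 9.10 CPM).

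Other matricellular genes, secreted modulators that are not structural parts of the matrix, were expressed in 12 of 15 cases with a median of 5.05 CPM. Cyr61 (499 ± 34.9 CPM) and osteopontin (Spp1, 106 ± 9.15 CPM) were the highest. Among 8 other genes with follistatin-like domains, 5 were expressed with a median of 28.0 CPM, led by the basement membrane proteoglycan agrin (Agrn, 368 ± 32.1 CPM) and Tmeff1 (165 ± 10.9 CPM). All 8 further secreted or lysosomal proteins known from Sertoli cells were expressed, with a median of 162 CPM. Ctsl, which is also in the protease list, and prosaposin (Psap, 1322 ± 27.0 CPM) led these. The sum of this list was 5052, 4734 and 5206 CPM in libraries 1, 2 and 3, highest in library 3 as were Sparc and Clu. All 7 heat shock factors and chaperones chosen beside Clu were expressed with a median of 137 CPM, led by the endoplasmic reticulum chaperones Hsp90b1 (1385 ± 83.0 CPM) and Hspa5 (849 ± 71.8 CPM). The sum of this list was highest in library 1, and these chaperones made up most of it. Clu was highest in library 3, as were some genes of the list with fewer reads.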

How the data were processed

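RNA-seq of 3 pools of sorted cells is used. Per the submitters' processing notes, the tools were RSEM 1.2.0, Bowtie 0.12.7 and CASAVA 1.8.2, with build mm9; the annotation is not given in the sources used here. The authors deposited square roots of scaled expected counts, per the file headers. The scaling was taken to be a division of each column by the 75th percentile of the rows with reads in some library. The simulated data named below use that divisor, and the CPM values do not depend on it. Squares of the values fell on steps of 0.01 read (100% of them within 0.05 of a step). Reading off those steps gave the expected counts, which were divided by the total over all 28427 rows to give CPM; the recovery was tested on simulated data. Symbols with more than 1 row kept the row of highest mean. The columns carry only a number, so libraries are called 1, 2 and 3 after them. With 1 RNA group no differential test exists, and p-values are not given; the labels call the pools independent biological replicates. Poisson intervals cover counting error only.

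Values per transcript length, protein sequence and chromatin at the members had been planned and were not analysed here. RefSeq supplied promoters and gene names (GRCm38.p6). The members and lists were chosen with earlier results of these data known; named genes are the 9 members, the 3 symbols on either side of Sparc and Clu, and the 2 highest of each list plus any at 0; Lrp2 and the chromosomal neighbours of members were added after values were seen. Of 124 list genes, 119 were matched; 1 further gene is not reported here. Calculations used Python 3.11.15, pandas 2.3.3, NumPy 2.4.6 and SciPy 1.17.1, and figures matplotlib 3.10.9. Alternatives were other totals, the authors' scaling, summed rows, medians, other thresholds and leaving out each library.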

Additional observations from a re-analysis of the deposited data

How the results depend on the processing

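No paired analysis was possible because the RNA-seq libraries form 1 group. With mitochondrial and ribosomal protein genes left out of the total, Spock2 moved to 517 CPM and Fstl1 to 192 CPM, more than their SD. With those genes left out of the ranking, Clu stood at rank 6, Spock2 at 210 and Fstl1 at 1106. Leaving out each library in turn put Clu at ranks 6 to 8 and left Sparc at rank 4, and the 8 neighbouring pairs of members stayed apart. Of 139 recomputed values for members, order, shares and counts, 133 moved by less than the SD or, for counts, by less than 1.5 times. A total over 1 row per symbol, chosen after seeing the data, gave 4410.5 CPM for Sparc. Medians taken on a log2 scale with a pseudocount of 1 fell in lists with an even number of genes, and by more than the spread between libraries in 3 of them: SPARC receptors to 27.7 CPM, proteases to 24.0 CPM and secreted Sertoli proteins to 129.6 CPM. Depth limits Spock3, at 4 to 9 counts a library, and Spock1. The lack of transcript lengths limits every order of genes.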

Other observations

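The genes next to Sparc and Clu took far fewer reads than Sparc and Clu themselves, which were chosen for their high counts. In the RefSeq gene order, the protein-coding neighbours of Sparc were the cadherin Fat2 (0.205 ± 0.0293 CPM) and the copper chaperone Atox1 (14.2 ± 1.20 CPM), against 4390.3 CPM for Sparc. Those of Clu were Scara3 (4.58 ± 0.294 CPM) and Gulo (1.56 ± 0.0993 CPM). Over all symbols the median was 0.712 CPM, which Atox1, Scara3 and Gulo exceeded and Fat2 did not. Spock2 lay between Ascc1 (26.5 ± 2.58 CPM) and Chst3 (6.54 ± 1.76 CPM), and Smoc1 between Slc10a1 (0.208 ± 0.0806 CPM) and Slc8a3 (1.22 ± 0.171 CPM).

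Smoc2 lay between Dact2 and the matricellular gene Thbs2. Dact2 stood at 21.1, 20.0 and 15.8 CPM in libraries 1, 2 and 3, and Thbs2 at 3.56, 3.55 and 2.44 CPM. Both neighbours were lowest in library 3, as was Smoc2 itself at 9.40 CPM and as were 37.5% of all expressed symbols. The neighbours named above for other members went both ways. Atox1 (15.505 CPM), Gulo (1.62 CPM), Ascc1 (29.5 CPM) and Slc8a3 (1.41 CPM) were highest in library 3. Fat2 (0.174 CPM), Scara3 (4.27 CPM), Chst3 (4.80 CPM) and Slc10a1 (0.119 CPM) were lowest there. Fat2 and Slc10a1 lay below 1 CPM in every library, so their order rests on few reads and the 37.5% does not cover them. Neighbours of Sparcl1, Spock1, Spock3 and Fstl1 are not listed here. All neighbours were named after their values were seen.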
